A study of Mus musculus with 16 samples.

Results

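The 4 Id genes and 6 further target genes of bone morphogenetic protein (BMP) signalling were followed across sorted mouse intestinal tumour cells. The 10 genes, Id1, Id2, Id3, Id4, Msx1, Msx2, Atoh8, Smad6, Smad9 and Bambi, were taken by name as known BMP targets and mapped from NCBI Gene IDs to mouse symbols. All 10 were among the 36528 gene IDs of every library, and 9 of them were among the 18072 genes with enough reads to be tested. Smad9 was the gene left out by the low-count filter. The study sequenced RNA of cells sorted by flow cytometry into GFP+ and GFP- fractions, which its design text calls Lgr5+ and Lgr5- tumour cells. There were 4 groups of 4 libraries each: AKVPSL GFP+, AKVPSL GFP-, AKVPL GFP+ and AKVPL GFP-. The labels give the genotypes as letters without spelling them out. In published work on this kind of mouse tumour V stands for Villin-Cre (a recombinase driven by an intestinal epithelial promoter), S for Smad4 and L for an Lgr5 reporter, and no source used here states this for these libraries. The genotypes differ by the letter S, so whatever A, K, V, P and L stand for is shared by all 4 groups. The labels do not say whether the libraries of a group came from separate animals, so a p-value here reflects how far these libraries scatter, which may be technical.

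BMP ligands bind paired type I and type II serine/threonine kinase receptors, which phosphorylate SMAD1, SMAD5 and SMAD9, and these enter the nucleus with SMAD4. The Id genes are among the most direct targets of that complex. Their products are helix-loop-helix proteins without a DNA-binding part, which hold basic helix-loop-helix (bHLH) factors off DNA. In the intestine BMP signalling is known to be low at the crypt base, where Lgr5+ stem cells lie, and higher towards the surface. Library depth ran between 10881115 and 41601600 counted reads, with overlapping ranges in the 4 groups. Lgr5, the gene behind the sort, was higher in GFP+ than in GFP- libraries by 1.99 ± 0.15 (SE) log2 units in AKVPSL and 2.18 ± 0.16 in AKVPL, by the quasi-likelihood test of edgeR (Benjamini-Hochberg adjusted p over all tested genes = 1.17e-07 and 1.88e-08). Libraries labelled AKVPSL did not have less Smad4 RNA. Smad4 averaged 248 ± 26.2 CPM (read counts scaled to library size by the TMM method; SD, n = 4) in AKVPSL GFP+ and 153 ± 4.24 CPM in AKVPL GFP+ libraries, and 179.6 ± 26.1 CPM in AKVPSL GFP- and 139 ± 14.2 CPM in AKVPL GFP- libraries. The log2 fold change of Smad4 was 0.70 ± 0.11 in GFP+ cells (edgeR adjusted p = 2.11e-05) and 0.37 ± 0.11 in GFP- cells (edgeR adjusted p = 0.00521), the second of which was 0.08 and not called when libraries were scaled on epithelial genes. Whole-gene counts can miss the loss of single exons, so these values do not check the genotype label.

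The promoter windows of 4 genes are shown first, because these genes stand for the different patterns described next. Id3 was lower in AKVPSL than in AKVPL libraries, Id4 was higher and Id2 differed little between the genotypes. Smad6 passed the threshold in no comparison of the reported fit, which does not pair libraries. Each window runs from 250 bases before to 50 bases after a start given for the gene in a set of RefSeq promoters (GRCm38.p6). It is written 5′ to 3′ on the gene's strand and was used for 8 of the 10 genes. No window of Id1 or Bambi is described here. For Smad6, Atoh8 and Smad9 that start lies inside the gene's RefSeq span, so positions there are not counted from the edge of the span. Capitals mark GGCGCC, a sequence that SMAD1 and SMAD5 are known to bind, and GTCT, the SMAD-binding element, on either strand (AGAC on the other strand). Id3 lies at chr4:136143572-136143871 on the plus strand, Id2 at chr12:25096043-25096342 on the minus strand, Id4 at chr13:48260866-48261165 on the plus strand and Smad6 at chr9:64022010-64022309 on the minus strand.
Id3: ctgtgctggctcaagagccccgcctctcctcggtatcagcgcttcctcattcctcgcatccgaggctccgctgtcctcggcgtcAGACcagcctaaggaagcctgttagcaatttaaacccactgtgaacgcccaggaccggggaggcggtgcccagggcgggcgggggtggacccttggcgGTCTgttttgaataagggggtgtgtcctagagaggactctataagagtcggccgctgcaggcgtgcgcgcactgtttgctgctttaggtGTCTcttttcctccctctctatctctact
Id2: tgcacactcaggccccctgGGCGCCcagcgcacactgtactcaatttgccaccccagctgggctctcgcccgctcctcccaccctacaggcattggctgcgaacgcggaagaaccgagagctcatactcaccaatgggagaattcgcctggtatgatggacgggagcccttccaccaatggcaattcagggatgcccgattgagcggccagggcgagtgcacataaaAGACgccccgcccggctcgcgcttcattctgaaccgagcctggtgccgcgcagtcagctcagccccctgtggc
Id4: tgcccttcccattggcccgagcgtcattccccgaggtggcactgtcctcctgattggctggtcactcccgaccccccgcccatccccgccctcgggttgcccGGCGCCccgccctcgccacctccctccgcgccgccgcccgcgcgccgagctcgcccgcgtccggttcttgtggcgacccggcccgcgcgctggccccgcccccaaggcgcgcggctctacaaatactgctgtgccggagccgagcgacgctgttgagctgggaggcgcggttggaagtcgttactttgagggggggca
Smad6: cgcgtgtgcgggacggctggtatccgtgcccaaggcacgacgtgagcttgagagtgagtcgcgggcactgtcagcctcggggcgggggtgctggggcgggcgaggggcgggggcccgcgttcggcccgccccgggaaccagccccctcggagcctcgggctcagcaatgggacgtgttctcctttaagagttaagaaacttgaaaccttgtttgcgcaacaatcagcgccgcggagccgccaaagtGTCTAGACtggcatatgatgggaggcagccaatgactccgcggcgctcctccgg

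GTCT or its complement occurred 3 times in the Id3 window, which held no GGCGCC. The Id2 window held 1 GGCGCC, from base -231 to -226 counted from the start, and 1 GTCT on the other strand from -23 to -20. The Id4 window held 1 GGCGCC, from -148 to -143, and no GTCT. In the Smad6 window GTCT and its complement met in the palindrome GTCTAGAC, from base -4 to 4 around the start used for the window, with no base 0. Of 32851 RefSeq promoter windows of the same length, 11.9% held GGCGCC, 88.0% held GTCT on either strand and 0.213% held GTCTAGAC. The Msx1 and Atoh8 windows held neither GGCGCC nor GTCT. The Msx2 window held 2 GTCT, and the Smad9 window held 1 GGCGCC and 2 GTCT counted over both strands. A match is a run of letters in this window and is not evidence of binding.

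The comparison of AKVPSL with AKVPL cells of the same sort asked how the genotypes differ in these genes. In both sorts Id1, Id3 and Msx1 were lower in AKVPSL, and Id4 was higher. The differences were large for Id1, which was 17.7-fold lower in GFP+ cells and 6.45-fold lower in GFP- cells, and for Id4, which was 11.5-fold and 5.32-fold higher. Msx2 passed the low-count filter only through the AKVPL libraries, so its genotype difference was built in and it is left out of the counts that follow. In GFP+ cells 5 of the other 8 tested genes passed the threshold of 0.05, 1 higher and 4 lower, where 53.0% of all tested genes passed (24.9% higher and 28.1% lower). In GFP- cells 6 of 8 passed, 1 higher and 5 lower, where 62.7% of all tested genes passed (32.0% higher and 30.7% lower). The median log2 fold change of the 8 genes was -0.27 in GFP+ and -0.91 in GFP- cells, beside medians of -0.05 and 0.00 over all tested genes. The 4 libraries of one genotype lay entirely above or below those of the other for 5 of the 8 genes in GFP+ cells, where 51.3% of all tested genes did so, and for 5 of 8 in GFP- cells, where 53.2% did. In GFP+ and GFP- cells alike, more than every second tested gene was called, so the count of members says little by itself.

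The comparison of GFP+ with GFP- cells of the same genotype asked how the Lgr5+ fraction differs from the rest. Id3 and Msx1 were lower in GFP+ cells of both genotypes, while Id4 and Atoh8 were higher in GFP+ cells of AKVPSL. In AKVPSL 6 of 9 genes passed, 2 higher (Id4 and Atoh8) and 4 lower (Id1, Id2, Id3 and Msx1), where 47.0% of all tested genes passed (22.4% higher and 24.6% lower). In AKVPL 4 of 9 passed without pairing, all lower (Id2, Id3, Msx1 and Bambi), where 39.1% of all tested genes passed (22.6% higher and 16.5% lower). With the replicate number as a block, which pairs the AKVPL libraries, 6 of 9 passed there, with Id4 lower and Smad6 higher in addition. Of the 9 genes the GFP+ and GFP- libraries did not overlap for 6 in AKVPSL, where 39.1% of all tested genes did not overlap, and for 4 in AKVPL, where 41.2% did not. Over the 8 genes other than Msx2 the median log2 fold changes were -0.36 in AKVPSL and -0.46 in AKVPL. Over all tested genes they were -0.01 and 0.14. With Msx2, which had 1 read in GFP+ and 0 in GFP- libraries of AKVPSL, the medians of the 9 genes were 0.14 and -0.55. Whether a sort effect differed between the genotypes was tested as the AKVPSL effect minus the AKVPL effect. That difference passed for 4 of the 9 genes, higher for Id4 and Bambi and lower for Id1 and Id3, where 20.7% of all tested genes passed (7.01% higher and 13.7% lower). The direction of all calls depended on the scaling of libraries: of the genes called between the AKVPL sorts 57.84% were higher with TMM scaling, 42.09% with DESeq2 size factors and 18.61% with epithelial scaling, and of those called in the difference of sort effects 33.85%, 49.21% and 84.27% were higher. Each sort comparison shares libraries with both genotype comparisons, and the difference uses all 16, so they do not support one another.

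**Figure D1:**
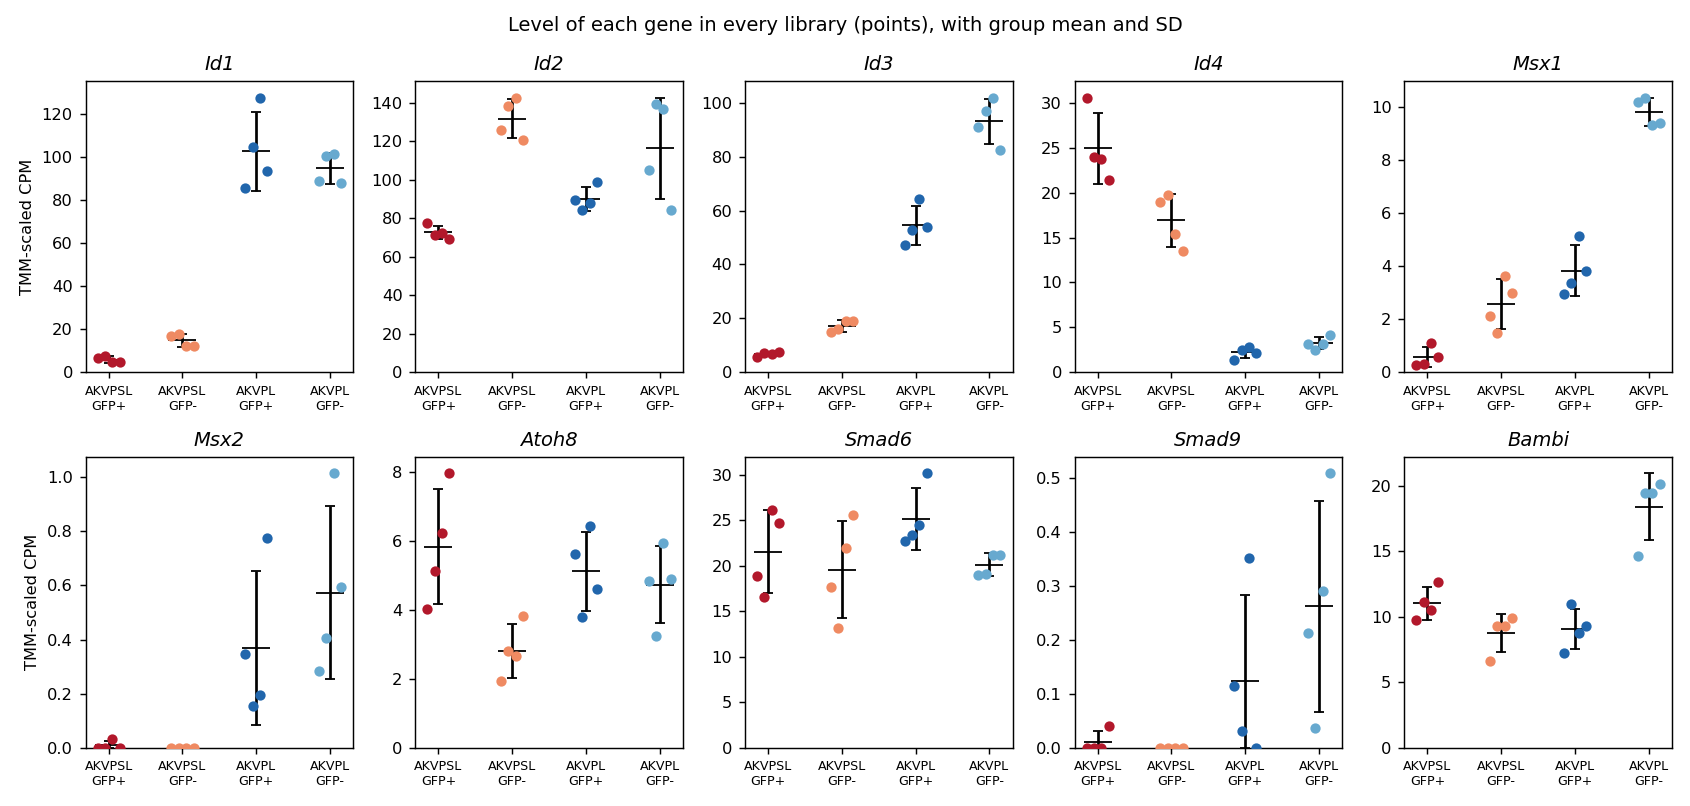
Level of each of the 10 genes in TMM-scaled CPM (y axis, from 0) in every library (points) of the 4 groups (x axis), with the mean and SD of each group (n = 4), the lower arm of the SD cut at 0 where it would pass it. Id1, Id3, Msx1 and Msx2 sit low in both AKVPSL groups and Id4 sits high there, while the 4 groups of Smad6 overlap except for the pair of AKVPL groups.

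Id1, which keeps bHLH factors from driving differentiation in many tissues, showed the largest genotype difference of the 4 Id genes in both sorts. AKVPSL GFP+ libraries had 6.59, 7.43, 4.43 and 4.64 CPM and AKVPSL GFP- libraries 16.6, 17.8, 12.1 and 12.2 CPM. AKVPL GFP+ libraries had 85.3, 104, 127 and 93.2 CPM and AKVPL GFP- libraries 88.9, 100.4, 101 and 87.8 CPM. All 8 AKVPSL libraries lay below all 8 AKVPL libraries, and the AKVPSL GFP+ libraries lay below the AKVPSL GFP- libraries, while the AKVPL sorts overlapped. Between genotypes the log2 fold change was -4.14 ± 0.19 in GFP+ cells (edgeR adjusted p = 3.24e-12) and -2.69 ± 0.17 in GFP- cells (edgeR adjusted p = 4.78e-10). Among the 18072 tested genes the Id1 value ranked 497 from the lowest in GFP+ and 858 from the lowest in GFP- cells. Between sorts it fell by 1.34 ± 0.18 on the log2 scale in AKVPSL (edgeR adjusted p = 1.64e-05). In AKVPL the log2 fold change between sorts was 0.12 ± 0.16 (edgeR adjusted p = 0.595), a value that turned to -0.13 when libraries were scaled on epithelial genes. The difference of these sort effects was -1.45 ± 0.24 (edgeR adjusted p = 0.000524).

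Id3, a close relative of Id1 in sequence and in BMP response, was likewise lower in AKVPSL, and it was lower in GFP+ cells of both genotypes. Id3 stood at 5.55, 7.03, 6.57 and 7.48 CPM in AKVPSL GFP+ libraries and at 14.7, 16.04, 18.8 and 18.9 CPM in AKVPSL GFP- libraries. In AKVPL it stood at 47.1, 52.6, 64.2 and 54.1 CPM in GFP+ libraries and at 90.9, 97.01, 102 and 82.7 CPM in GFP- libraries. The 4 groups did not overlap, in the order AKVPSL GFP+, AKVPSL GFP-, AKVPL GFP+ and AKVPL GFP-, low to high. Between genotypes the log2 fold change was -3.04 ± 0.13 in GFP+ cells (8.21-fold lower, edgeR adjusted p = 1.05e-12) and -2.45 ± 0.12 in GFP- cells (5.45-fold lower, edgeR adjusted p = 1.71e-11). Between sorts it was -1.37 ± 0.12 in AKVPSL (edgeR adjusted p = 5.03e-07) and -0.77 ± 0.12 in AKVPL (edgeR adjusted p = 5.22e-05). The AKVPSL sort effect minus the AKVPL sort effect was -0.59 ± 0.17 (edgeR adjusted p = 0.0198), a call that ended with epithelial scaling (-0.24), without the low-count filter (-0.52) and on the deposited RPKM values plus 1 (-0.38).

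Id4, the family member that can act against the other ID proteins in some cell types, went the opposite way between genotypes. AKVPSL GFP+ libraries had 30.6, 23.98, 23.7 and 21.4 CPM and AKVPSL GFP- libraries 18.98, 19.8, 15.4 and 13.5 CPM. AKVPL GFP+ libraries had 1.32, 2.44, 2.81 and 2.16 CPM and AKVPL GFP- libraries 3.12, 2.501, 3.14 and 4.15 CPM. Every AKVPSL library lay above every AKVPL library. The genotype difference was 3.52 ± 0.22 log2 units in GFP+ cells (edgeR adjusted p = 2.16e-10) and 2.41 ± 0.21 in GFP- cells (edgeR adjusted p = 2.28e-08), ranking 175 and 348 from the highest of all tested genes. In AKVPSL it rose in GFP+ over GFP- cells by 0.56 ± 0.19 (edgeR adjusted p = 0.0228), and this call was lost without AKVPSL GFP+ replicate 1 (0.42), AKVPSL GFP- replicate 3 (0.52) or AKVPSL GFP- replicate 4 (0.47). In AKVPL the value was -0.55 ± 0.22 (edgeR adjusted p = 0.0594), and -0.57 with the replicate number as a block (edgeR adjusted p = 0.037). It also passed with DESeq2 size factors (-0.64), epithelial scaling (-0.81) and without AKVPL GFP+ replicate 3 (-0.69) or AKVPL GFP- replicate 2 (-0.66). The difference of the sort effects was 1.11 ± 0.29 (edgeR adjusted p = 0.0132). Id4 shares 82 exonic bases with the antisense gene A330033J07Rik and 171 with Gm49291, of 3849 exonic bases (GENCODE M21). No source used here gives the strand setting of the counting, so reads of these genes and of Id4 cannot be told apart there.

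Id2, which many epithelial and lymphoid cells express, differed more between sorts than between genotypes. Id2 stood at 77.5, 71.4, 72.2 and 69.1 CPM in AKVPSL GFP+ libraries and at 126, 138, 142 and 121 CPM in AKVPSL GFP- libraries. In AKVPL it stood at 89.6, 84.3, 87.7 and 98.8 CPM in GFP+ libraries and at 105, 139, 137 and 84.4 CPM in GFP- libraries. The AKVPSL sorts did not overlap, and in AKVPL GFP- replicates 1, 2 and 3 lay above every GFP+ library and replicate 4 within their range. In AKVPSL it fell by 0.86 ± 0.12 on the log2 scale in GFP+ cells (edgeR adjusted p = 3.65e-05). In AKVPL it was -0.37 ± 0.12 (edgeR adjusted p = 0.0242), a call that ended without AKVPL GFP+ replicate 2 (-0.34) or 3 (-0.36) or AKVPL GFP- replicate 2 (-0.27) or 3 (-0.28). The difference of the sort effects was -0.49 ± 0.18 (edgeR adjusted p = 0.0541) and passed without AKVPSL GFP- replicate 4 (-0.53) or AKVPL GFP- replicate 2 (-0.59) or 3 (-0.58). Between genotypes it was -0.31 ± 0.12 in GFP+ cells (edgeR adjusted p = 0.0414). That call ended with epithelial scaling (-0.25), without the low-count filter (-0.29), and without AKVPSL GFP+ replicate 2 (-0.33) or 4 (-0.32) or AKVPL GFP+ replicate 3 (-0.32) or 4 (-0.27). In GFP- cells it was 0.18 ± 0.12 (edgeR adjusted p = 0.22), and -0.08 with epithelial scaling.

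Levels of the 4 Id genes can be compared with each other only per length, for which the authors' size-factor-adjusted RPKM values were used. Id2 made up 65.5 to 68.7% of the summed Id RPKM in the AKVPSL GFP+ libraries and 69.01 to 72.8% in AKVPSL GFP-, against 25.4 to 33.5% in AKVPL GFP+ and 26.8 to 34.4% in AKVPL GFP-. Id1 made up 5.64 to 9.11% in AKVPSL GFP+ and 8.25 to 12.2% in AKVPSL GFP-, against 41.9 to 49.3% in AKVPL GFP+ and 32.98 to 37.3% in AKVPL GFP-. Id2 was thus the most abundant Id transcript of every AKVPSL library. Id3 averaged 8.27 ± 1.45%, 12.3 ± 1.84%, 24.1 ± 0.567% and 33.8 ± 1.46% of the sum (SD, n = 4) in AKVPSL GFP+, AKVPSL GFP-, AKVPL GFP+ and AKVPL GFP-. In the same order Id4 averaged 17.6 ± 1.6997%, 6.92 ± 1.04%, 0.548 ± 0.118% and 0.689 ± 0.230%. The summed Id RPKM was 77.3 ± 4.64 in AKVPSL GFP+ and 134 ± 8.86 in AKVPSL GFP-, against 216 ± 25.4 in AKVPL GFP+ and 283 ± 34.9 in AKVPL GFP-. In AKVPL GFP+ cells Id1 exceeded Id2 in every library, and in AKVPL GFP- cells Id2 exceeded Id1 in replicates 2 and 3.

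**Figure D2:**
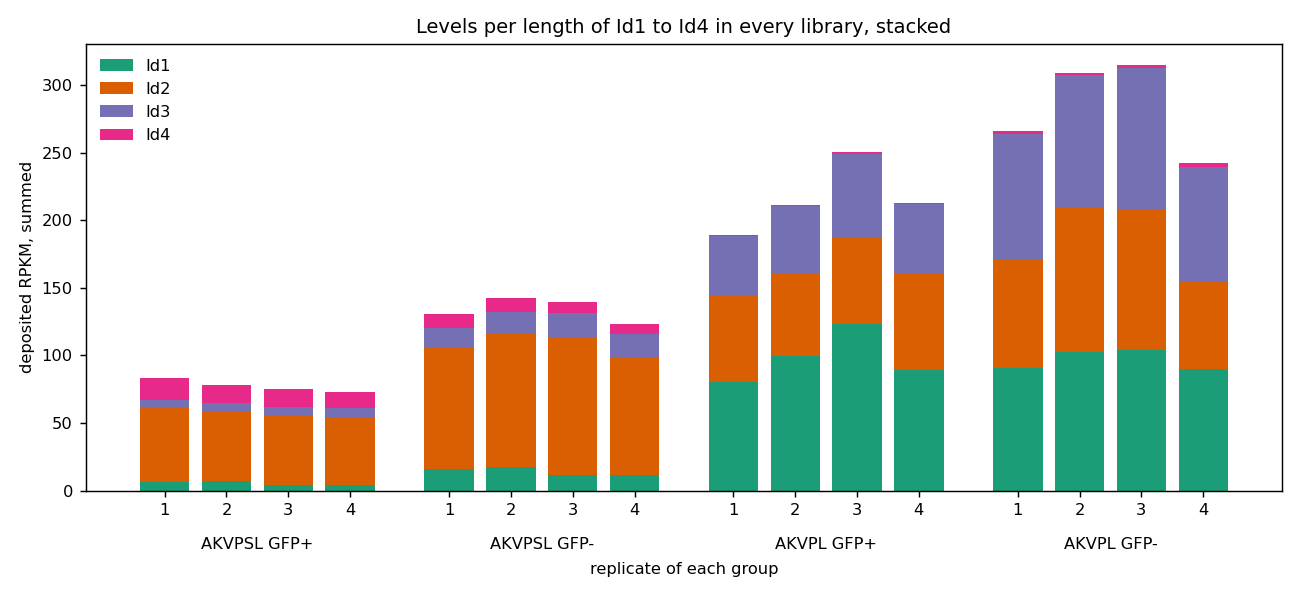
Deposited RPKM of Id1, Id2, Id3 and Id4 (colours), stacked, in each library (bars, replicates 1 to 4 of the 4 groups). Id2 fills most of every AKVPSL bar, Id1 and Id3 fill most of every AKVPL bar, and Id4 is a visible share in AKVPSL libraries alone.

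**Figure D3:**
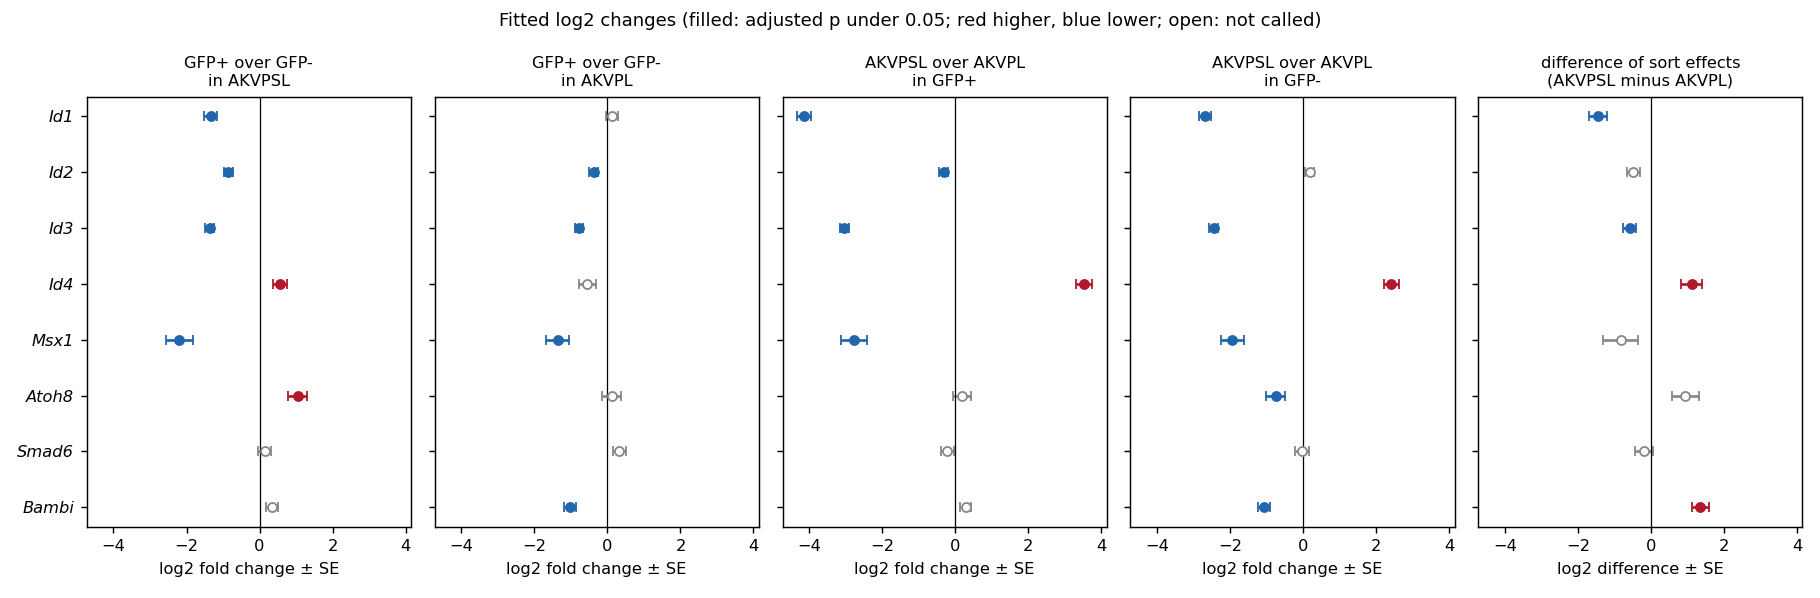
Fitted log2 change with its SE (x axis, the same scale in all panels) of 8 genes (rows) in the 4 comparisons and in the difference of the sort effects. Filled points passed an adjusted p of 0.05 (red higher, blue lower), and Msx2 is left out because a group at 0 counts has no fitted bound.

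Msx1 and Msx2 encode homeobox repressors that follow BMP signalling in limb, tooth and skull development of the mouse. Msx1 had 0.273, 0.301, 1.0999 and 0.575 CPM in AKVPSL GFP+ libraries and 2.13, 1.48, 3.63 and 2.98 CPM in AKVPSL GFP- libraries. It had 2.93, 3.37, 5.16 and 3.82 CPM in AKVPL GFP+ libraries and 10.2, 10.4, 9.33 and 9.402 CPM in AKVPL GFP- libraries. GFP+ lay below GFP- in each genotype without overlap, and AKVPSL lay below AKVPL in each sort without overlap. The log2 fold change between sorts was -2.20 ± 0.37 in AKVPSL (edgeR adjusted p = 0.000128) and -1.37 ± 0.31 in AKVPL (edgeR adjusted p = 0.00217). Between genotypes it was -2.78 ± 0.36 in GFP+ cells (edgeR adjusted p = 3.72e-06) and -1.94 ± 0.32 in GFP- cells (edgeR adjusted p = 4.53e-05). On the scale of log2 RPKM plus 1, which shrinks changes of low genes, the values were -0.79 and -1.10 between sorts, -1.14 and -1.45 between genotypes. The difference of the sort effects was -0.83 ± 0.48 (edgeR adjusted p = 0.224), with an approximate 95% interval of -1.87 to 0.21. It passed without AKVPSL GFP+ replicate 3 (-1.41) and was 0.31 on log2 RPKM plus 1. The antisense gene Msx1os lies within the span of Msx1 on chromosome 5 in RefSeq (37820564 to 37822751 inside 37820491 to 37824585, build GRCm38.p6) and averaged 0.428, 2.08, 2.64 and 7.02 CPM in AKVPSL GFP+, AKVPSL GFP-, AKVPL GFP+ and AKVPL GFP-. Without the strand setting, reads of the 2 genes cannot be told apart where their exons overlap.

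Msx2 was near the detection limit. The AKVPSL GFP+ libraries had 0, 0, 1 and 0 reads and the AKVPSL GFP- libraries 0, 0, 0 and 0. The AKVPL GFP+ libraries had 12, 5, 5 and 14 reads and the AKVPL GFP- libraries 8, 11, 21 and 7. It passed the low-count filter through the AKVPL libraries alone, in which it is high, so a difference between genotypes was built into its passing. In GFP+ cells it was 40.5-fold lower in AKVPSL by summed reads, with a 95% counting interval of 6.82 to 1643. In GFP- cells, with 0 reads in AKVPSL, the 95% counting interval began at 13.8-fold lower. Set against a floor of 3 reads over the group, it was 17.6-fold lower. Intervals and floors cover counting error only. Msx2 passed the threshold in neither sort comparison.

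Atoh8, a bHLH factor induced by BMP in several cell types, was higher in GFP+ cells of AKVPSL. AKVPSL GFP+ libraries had 4.04, 5.12, 6.23 and 7.97 CPM and AKVPSL GFP- libraries 1.93, 2.82, 2.66 and 3.83 CPM. AKVPL GFP+ libraries had 5.63, 3.803, 6.45 and 4.601 CPM and AKVPL GFP- libraries 4.85, 3.24, 5.95 and 4.91 CPM. The AKVPSL sorts did not overlap and every other pair of groups compared did. The sort effect was 1.05 ± 0.26 log2 units in AKVPSL (2.08-fold, edgeR adjusted p = 0.00294; 0.60 on log2 RPKM plus 1) and 0.12 ± 0.26 in AKVPL (edgeR adjusted p = 0.746), where it turned to -0.13 with epithelial scaling. The difference of the sort effects was 0.94 ± 0.36 (edgeR adjusted p = 0.0749) and passed with the replicate number as a block (0.93, adjusted p = 0.00875), with epithelial scaling (1.29) and with the DESeq2 Wald test (1.03). That block also covers AKVPSL, where the numbers were not taken as pairs. The difference also passed without AKVPSL GFP+ replicate 1 (1.07), AKVPSL GFP- replicate 4 (1.13) or AKVPL GFP- replicate 2 (1.09). Between genotypes Atoh8 was -0.75 ± 0.26 in GFP- cells (edgeR adjusted p = 0.019), and 0.18 ± 0.25 in GFP+ cells (edgeR adjusted p = 0.561). Its call in GFP- cells was lost without AKVPSL GFP- replicate 1 (-0.62) or AKVPL GFP- replicate 3 (-0.62), and the value was -0.47 on log2 RPKM plus 1.

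Of the feedback inhibitors Smad6 was the more abundant per length. It encodes an inhibitory SMAD that competes for the receptors and for SMAD4. Smad6 reached 18.9, 16.5, 26.1 and 24.7 CPM in AKVPSL GFP+ libraries and 17.7, 13.1, 21.9 and 25.5 CPM in AKVPSL GFP- libraries. In AKVPL it reached 22.7, 23.4, 24.5 and 30.2 CPM in GFP+ libraries and 18.95, 19.05, 21.2 and 21.2 CPM in GFP- libraries. Without pairing of libraries Smad6 passed in no comparison, although the AKVPL sorts did not overlap. The approximate 95% interval of its log2 fold change was -0.25 to 0.52 between sorts in AKVPSL and -0.06 to 0.71 in AKVPL. Between genotypes the interval was -0.61 to 0.16 in GFP+ cells and -0.43 to 0.35 in GFP- cells. With the replicate number as a block, which pairs the AKVPL sorts, its value in AKVPL was 0.32 and passed (edgeR adjusted p = 0.0226).

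Bambi encodes a membrane pseudoreceptor without a kinase, which BMP and WNT signalling induce and which dampens receptor activity. Bambi was counted at 9.74, 11.1, 10.5 and 12.7 CPM in AKVPSL GFP+ libraries and at 6.59, 9.26, 9.26 and 9.92 CPM in AKVPSL GFP- libraries. In AKVPL it was counted at 7.22, 10.98, 8.79 and 9.31 CPM in GFP+ libraries and at 14.6, 19.4, 19.4 and 20.2 CPM in GFP- libraries. The AKVPL GFP- libraries stood above all the others and the other 3 groups overlapped. In AKVPL it fell by 1.02 ± 0.16 on the log2 scale in GFP+ cells (edgeR adjusted p = 9.41e-05). In AKVPSL the log2 fold change was 0.33 ± 0.16 (edgeR adjusted p = 0.102), with the higher mean in GFP+ libraries. The AKVPSL value passed with epithelial scaling (0.44) and with the replicate number as a block (0.34). The numbers were not taken as pairs in AKVPSL, so the block value there does not rest on accepted pairs. The difference of the sort effects was 1.35 ± 0.23 (edgeR adjusted p = 0.000694). Between genotypes Bambi was -1.07 ± 0.16 in GFP- cells (edgeR adjusted p = 1.71e-05) and 0.28 ± 0.16 in GFP+ cells (edgeR adjusted p = 0.157). Its pseudogene Bambi-ps1, which could share reads with it, averaged between 0.0917 and 0.405 CPM in the 4 groups.

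Smad9, which encodes a receptor-regulated SMAD, had 0, 0, 0 and 1 reads in the AKVPSL GFP+ libraries and 0, 0, 0 and 0 in the AKVPSL GFP- libraries. It had 4, 1, 9 and 0 reads in the AKVPL GFP+ libraries and 6, 1, 6 and 6 in the AKVPL GFP- libraries. By summed reads it was 15.7-fold lower in AKVPSL in GFP+ cells, with a 95% counting interval of 2.395 to 666. In GFP- cells the interval began at 5.25-fold lower, and against a floor of 3 reads over the group it was 7.12-fold lower. It was not tested at the filter used. When every gene with a read was kept, it passed between genotypes in GFP- cells, where it had 0 reads in AKVPSL.

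Per length the order of the 10 genes depended on the group. In AKVPSL GFP+ libraries Id2 led at 51.8 ± 2.45 RPKM (SD, n = 4) and Id4 followed at 13.6 ± 2.14. Id3 (5.27 to 7.13 RPKM), Smad6 (4.73 to 7.47) and Id1 (4.24 to 7.11) came next with overlapping ranges, and Bambi and Atoh8 overlapped at 1.75 to 2.28 and 1.35 to 2.67 RPKM. In AKVPSL GFP- libraries Id2 led at 94.4 ± 7.3995 RPKM, ahead of Id3 (14.1 to 18.01) and Id1 (11.5 to 17.2), whose ranges overlapped, and of Id4 (7.401 to 10.9). In AKVPL GFP+ libraries Id1 led at 98.2 ± 18.4 RPKM, and Id2 (60.3 to 70.8) and Id3 (44.4 to 61.98) overlapped. In AKVPL GFP- libraries Id1 (90.2 to 104 RPKM), Id3 (84.7 to 104) and Id2 (64.7 to 106) all overlapped. Smad6 stayed between 5.61 and 7.21 RPKM on average in the 4 groups, and Msx2 and Smad9 stayed lowest in each of them.

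**Figure D4:**
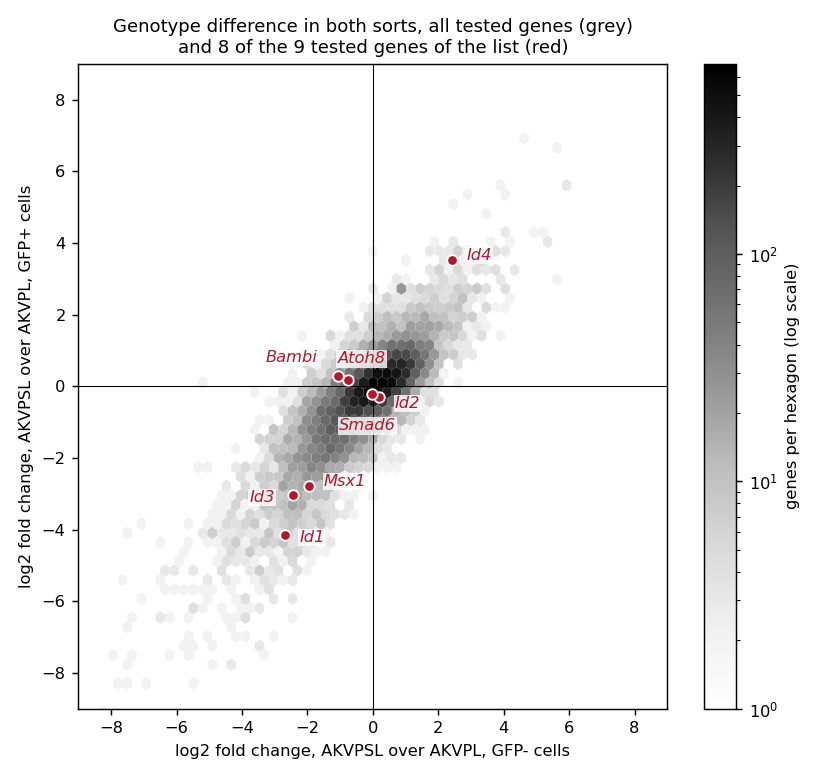
Log2 fold change of AKVPSL over AKVPL in GFP- cells (x axis) and in GFP+ cells (y axis) for all tested genes (grey hexagons, shaded by the number of genes on a log scale) and for 8 of the 10 genes (red). Id1, Id3 and Msx1 sit low on both axes and Id4 high on both, while Bambi and Atoh8 sit left of 0 and above it. Of all tested genes 33 lie beyond the axes, and Msx2, with a group at 0 counts, is not drawn.

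Markers of other cell types moved with the sort and with the genotype. Of all tested genes 24.6% fell and 22.4% rose in GFP+ cells of AKVPSL, and 16.5% fell and 22.6% rose in AKVPL. All of these are bulk libraries, in which fewer cells of a type and less RNA per cell cannot be told apart. Of 20 fibroblast markers 19 fell in GFP+ cells of AKVPSL and 16 in AKVPL, and none rose. Their summed level ran at 508 to 1533 CPM in AKVPSL GFP+ and 2235 to 3919.9 in AKVPSL GFP-, against 1038 to 1734 in AKVPL GFP+ and 5693 to 11717 in AKVPL GFP-. Of 14 endothelial markers 12 fell and 1 rose in GFP+ cells of AKVPSL and 14 fell in AKVPL, with sums of 166 to 207 and 182 to 579.9 CPM in AKVPSL GFP+ and GFP-, against 105 to 157 and 525 to 962 CPM in AKVPL GFP+ and GFP-. Endothelial cells and fibroblasts are known to express Id1 and Id3. Of 21 tested leukocyte markers 20 and 19 fell in GFP+ cells of AKVPSL and AKVPL, with sums of 144 to 503 and 1273 to 5367 CPM in AKVPSL GFP+ and GFP-, against 643 to 1681 and 5208 to 9288 CPM in AKVPL GFP+ and GFP-. Of 10 smooth muscle and pericyte markers 7 fell in AKVPSL and 8 in AKVPL, and 1 rose in each. Their sums were 59.5 to 110.4 and 142 to 201 CPM in AKVPSL GFP+ and GFP-, against 85.5 to 110.1 and 268 to 620.5 CPM in AKVPL GFP+ and GFP-.

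Between genotypes more of the same markers fell than rose in GFP- cells of AKVPSL. There 15 of 20 fibroblast, 6 of 14 endothelial and 10 of 21 leukocyte markers fell and 1, 1 and 0 rose. Of 10 smooth muscle and pericyte markers 8 fell. In GFP+ cells 6 of 20 fibroblast and 3 of 14 endothelial markers fell, 1 and 3 rose, and 14 of 21 leukocyte markers fell. Of the 10 smooth muscle and pericyte markers 1 fell there. Of all tested genes 30.7% were lower and 32.0% higher in GFP- cells, and 28.1% lower and 24.9% higher in GFP+ cells. The 20 epithelial identity genes summed to 13964 to 14331 and 14809 to 16014 CPM in AKVPSL GFP+ and GFP-, and 13387 to 16471 and 11266 to 13776 CPM in AKVPL GFP+ and GFP-. Between sorts 4 of them rose and 6 fell in AKVPSL, and 10 rose and none fell in AKVPL. Between genotypes 11 were higher and 2 lower in GFP- cells of AKVPSL, and 4 were higher and 6 lower in GFP+ cells. Glial and neuronal markers summed to between 5.81 and 12.1 CPM in every library. Every endothelial, fibroblast, smooth muscle and epithelial gene of the lists had reads in each group, and of the leukocyte markers Cd3g was at 0 in 3 groups. The part of these markers in the results for the 10 genes was not tested. With libraries scaled on the epithelial genes, the calls of Id1, Id3, Id4 and Msx1 between genotypes held in both sorts. This scaling changes all genes of a library by 1 factor and takes out no reads of other cell types, so it does not test their part.

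Other genes of the pathway were described from lists of ligands, receptors, antagonists and SMADs. The called shares of all tested genes stand beside the counts of these lists and of the response genes and bHLH factors below. Between genotypes 24.9% were higher and 28.1% lower in GFP+ cells, and 32.0% and 30.7% in GFP- cells. Between sorts 22.4% were higher and 24.6% lower in AKVPSL, and 22.6% and 16.5% in AKVPL. In the same order the medians over all tested genes were -0.05, 0.00, -0.01 and 0.14. Of 10 tested genes of the ligand list 4 were higher and 2 lower in AKVPSL than in AKVPL GFP+ cells (median 0.63), and 3 were higher and 3 lower in GFP- cells (median -0.13). Bmp4, which stromal and epithelial cells of the gut make, averaged 25.7 ± 2.95 CPM in AKVPSL GFP+ and 7.35 ± 0.700 CPM in AKVPL GFP+ libraries, a log2 fold change of 1.81 ± 0.14 (edgeR adjusted p = 3.35e-09). It was 1.53 ± 0.14 higher in GFP- cells (edgeR adjusted p = 2.83e-08). Bmp8b was 3.18 ± 0.20 and 2.74 ± 0.19 higher in AKVPSL GFP+ and GFP- cells (edgeR adjusted p = 1.83e-10 and 1.17e-09), and Bmp3, an atypical member known to oppose BMP signalling in bone, 2.95 ± 0.25 higher in GFP+ cells (edgeR adjusted p = 1.23e-08). Bmp1, a procollagen protease despite its name, was -1.44 ± 0.13 in GFP- cells (edgeR adjusted p = 2.02e-08). Between sorts 1 ligand gene rose and 1 fell in AKVPSL, where Bmp7 rose by 1.00 ± 0.14 (edgeR adjusted p = 2.11e-05). In AKVPL 4 fell and none rose, among them Bmp2 at -1.49 ± 0.30 (edgeR adjusted p = 0.00123). In AKVPSL the Bmp2 value was -0.76 ± 0.30 (edgeR adjusted p = 0.0471), with overlapping libraries. That call ended with epithelial scaling (-0.64), without AKVPSL GFP+ replicate 1 (-0.63) or 2 (-0.69), without AKVPSL GFP- replicate 3 (-0.56) or 4 (-0.60), and, at a value near the reported one, under further settings.

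Of the 8 receptor genes 1 was higher and 4 lower in AKVPSL than in AKVPL GFP+ cells (median -0.32), and 5 were lower in GFP- cells (median -0.74). In these comparisons 53.0% and 62.7% of all tested genes were called. Acvr1, which encodes the type I receptor ALK2, was -0.59 ± 0.09 and -0.72 ± 0.09 in GFP+ and GFP- cells (edgeR adjusted p = 3.46e-05 and 2.91e-06). Between sorts 4 receptor genes rose and 2 fell in AKVPSL (median 0.25), and 1 rose and 2 fell in AKVPL (median 0.01). The 2 that fell were Acvrl1, at -3.15 ± 0.27 in AKVPSL and -2.79 ± 0.26 in AKVPL (edgeR adjusted p = 3.25e-07 and 4.75e-07), and Eng, at -3.16 ± 0.44 and -3.48 ± 0.43 (edgeR adjusted p = 8.09e-05 and 3.51e-05), which encode a type I receptor and a co-receptor of endothelial cells. Bmpr1a, the widely expressed type I receptor, rose by 0.40 ± 0.10 in AKVPL (edgeR adjusted p = 0.00383), a call that ended with epithelial scaling (0.15).

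Of 8 tested antagonist genes 1 was higher and 3 lower in AKVPSL than in AKVPL GFP+ cells (median -0.86), and 5 were lower in GFP- cells (median -0.69). Fst, which encodes follistatin, averaged 28.8 ± 7.13 CPM in AKVPSL GFP+ and 91.6 ± 38.1 CPM in AKVPL GFP+ libraries (-1.67 ± 0.26, edgeR adjusted p = 7.03e-05). It was -0.97 ± 0.26 in GFP- cells (edgeR adjusted p = 0.00429). Chrd, which encodes chordin, was 1.22 ± 0.21 higher in GFP+ cells (edgeR adjusted p = 5.98e-05). Twsg1, a modulator that binds chordin and BMPs, rose by 0.63 ± 0.10 in AKVPSL (edgeR adjusted p = 0.000107) and by 0.43 ± 0.10 in AKVPL (edgeR adjusted p = 0.00272; 0.19 and no longer called with epithelial scaling). Between sorts 1 antagonist gene rose and 2 fell in AKVPSL, and 2 rose and 3 fell in AKVPL.

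Of the 6 genes in the list of SMADs and their ubiquitin ligases 3 were higher and none lower in AKVPSL than in AKVPL GFP+ cells, and 2 were higher and 3 lower in GFP- cells. Smad5, a receptor-regulated SMAD, rose between sorts in AKVPSL by 0.76 ± 0.12 (edgeR adjusted p = 7.73e-05) and was 0.79 ± 0.12 higher in AKVPSL GFP+ than in AKVPL GFP+ cells (edgeR adjusted p = 1.97e-05). Smad7, the other inhibitory SMAD, which TGF-beta signalling also induces, was -0.68 ± 0.11 between sorts in AKVPL (edgeR adjusted p = 0.0001) and -0.59 ± 0.11 between genotypes in GFP- cells (edgeR adjusted p = 0.000143). Between sorts 4 of the 6 rose and 1 fell in AKVPSL, and 1 fell in AKVPL. Of 5 further tested BMP response genes, a list that repeats Smad7, 4 fell between sorts in each genotype, 3 fell between genotypes in each sort, and none rose. Runx2, a transcription factor of bone, averaged 25.3 ± 3.54 CPM in AKVPSL GFP+ and 44.2 ± 2.53 CPM in AKVPL GFP+ libraries (-0.80 ± 0.12, edgeR adjusted p = 1.44e-05). It was -1.17 ± 0.12 in GFP- cells (edgeR adjusted p = 1.39e-07). Hey1, which Notch signalling also induces, was -3.64 ± 0.52 in GFP+ and -1.79 ± 0.44 in GFP- cells (edgeR adjusted p = 1.59e-05 and 0.00208). Dlx3, a homeobox gene, fell between sorts, with log2 fold changes of -1.28 ± 0.21 in AKVPSL and -1.07 ± 0.21 in AKVPL (edgeR adjusted p = 0.000128 and 0.000632).

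**Figure D5:**
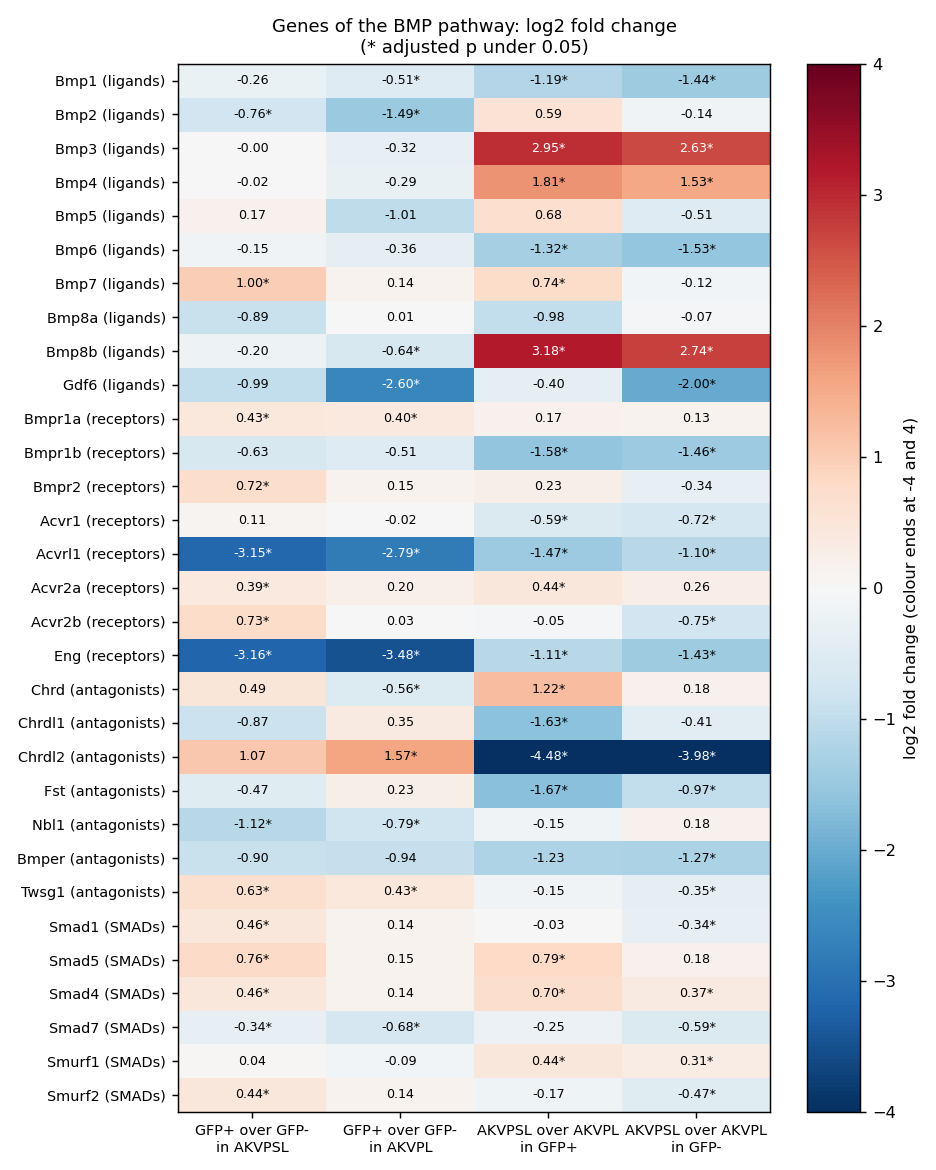
Fitted log2 fold change (colour and number) of tested genes of the ligand, receptor, antagonist and SMAD lists (rows) in the 4 comparisons (columns), with an asterisk where the adjusted p was under 0.05. Bmp3, Bmp4 and Bmp8b are orange or red in both genotype columns, and Acvrl1 and Eng are blue in both sort columns.

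The bHLH factors, the known partners of ID proteins, moved in both directions. Of 8 tested, 3 were higher and 2 lower in AKVPSL than in AKVPL GFP+ cells, and 2 were higher and 3 lower in GFP- cells. Between sorts 4 rose and 1 fell in AKVPSL, and 2 rose and 2 fell in AKVPL. Tcf12, which encodes an E protein that ID proteins bind, averaged 179.5 ± 15.4 CPM in AKVPSL GFP+ and 101 ± 17.98 CPM in AKVPSL GFP- libraries (0.83 ± 0.11, edgeR adjusted p = 2.24e-05). Tcf3, another E protein gene, rose by 0.49 ± 0.07 in AKVPL (edgeR adjusted p = 5.44e-05), and this call ended with epithelial scaling (0.26). Twist1, a mesenchymal factor, averaged 8.48 ± 1.71 CPM in AKVPSL GFP+ and 0.632 ± 0.150 CPM in AKVPL GFP+ libraries (3.73 ± 0.29, edgeR adjusted p = 3.81e-09). In AKVPL GFP- libraries it averaged 5.83 ± 1.60 CPM. Its sort effects differed by 3.62 ± 0.37 (edgeR adjusted p = 4.89e-06), so the GFP+ value does not stand for GFP- cells. Bhlha15, a factor of secretory cells, averaged 5.13 ± 0.617 CPM in AKVPSL GFP+ and 1.67 ± 0.468 CPM in AKVPL GFP+ libraries (1.63 ± 0.29, edgeR adjusted p = 0.000108). In AKVPSL GFP- libraries it averaged 1.71 ± 0.55 CPM, and its sort effects differed by 1.56 ± 0.42 (edgeR adjusted p = 0.0136). Its GFP+ value likewise does not stand for GFP- cells. Of the 8 bHLH factors 3 were higher and 1 lower in the difference of sort effects.

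The 9 tested genes were also compared with all genes by their pattern over the 16 libraries, as Pearson correlations of log2 CPM among 12310 genes. These values are descriptions, since the libraries share the group differences and many genes follow them. The genes most like Id1 were Col7a1 (0.99), Slc22a17 (0.99) and Abhd5 (0.99), and those most like Id3 were Mcub (0.99), Lrmp (0.99) and Plcb2 (0.99). Those most like Id4 were Ank2 (0.99), Irx5 (0.99) and Chpt1 (0.99), and those most like Id2 were Cstb (0.95), Pold4 (0.93) and Asb6 (0.92). Msx1 was most like its antisense partner Msx1os (0.99), followed by Pros1 (0.98) and Slc12a4 (0.98). Reads of Msx1 and Msx1os cannot be told apart where their exons overlap, and the part of shared reads in this likeness was not tested. Smad6 was most like Kif1c (0.90). Atoh8 was most like Igfbp1 (0.85), Bambi most like Tacc1 (0.86) and Msx2 most like Cyb561d1 (0.92). In deviations from the group means the most alike genes stood at 0.10 for Id1, 0.76 for Id2, 0.78 for Id3 and 0.60 for Id4. The values were 0.95 for Msx1, 0.93 for Smad6, 0.67 for Atoh8, 0.45 for Bambi and 0.64 for Msx2. Col7a1 thus followed Id1 across the groups but hardly within them. Among the 9 genes, Id1 correlated at 0.96 with Id3 and at -0.95 with Id4 over the 16 libraries, and at -0.05 and 0.58 once the group means were taken out.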

How the data were processed

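RNA of 16 libraries was analysed, 4 in each of 4 groups taken from the labels. Per the file headers, each deposited file gives for every gene ID a count of reads aligning uniquely to the gene model and a size-factor-adjusted RPKM value, both made by the authors. The submitters' processing notes name GSNAP and GRCm38. No source used here gives versions or the strand setting. In the tissue field 15 libraries carry small intestine, and AKVPSL GFP- replicate 1 carries colon, while all titles name colon. Of 36528 gene IDs 31049 (85%) matched a symbol.

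The deposited counts were filtered with filterByExpr, scaled by TMM (factors 0.936 to 1.086) and fitted in 1 edgeR quasi-likelihood model (edgeR 4.0.16, limma 3.58.1, R 4.3.3) with a mean per group and 12 residual degrees of freedom. P-values were adjusted by the Benjamini-Hochberg method over the 18072 tested genes, with a threshold of 0.05. Each SE was derived from the fold change and its F statistic, and intervals are approximate. The procedure was tested on simulated data. Alternatives were other scalings (DESeq2 1.42.0 size factors, library totals, summed counts of 20 epithelial identity genes, called epithelial scaling), the DESeq2 Wald test, no filter, the compared libraries alone, limma on log2 of the deposited RPKM plus 1 or 0.1, a replicate block, and each library left out.

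Named genes are the 10 members, Lgr5 and Smad4, up to 3 genes with the smallest adjusted p per further list and comparison, and the 3 most alike genes per member. A gene of the antagonist list is not reported here. The members and lists were chosen with earlier results of these data known. Same-numbered AKVPL GFP+ and GFP- libraries deviated together (correlations of deviations from the group means between 0.1529 and 0.3365), so those numbers were taken as pairs. The reported fit has no block, so its AKVPL sort values are unpaired, and the paired values are those given with the replicate block. In AKVPSL replicates 1, 2, 3 and 4 gave 0.4645, 0.4004, 0.0659 and 0.3024. The same-numbered GFP- library was the closest for replicates 1 and 2 alone. The genotype pairs reached down to -0.0912. Numbers were therefore not taken as pairs in AKVPSL or between genotypes, although some AKVPSL values exceeded those of AKVPL. All 24 pairs of libraries within a group differed by more than counting noise (9.05 to 73.6 times, as chi-square over its degrees of freedom).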

Additional observations from a re-analysis of the deposited data

Results flagged for a closer look

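The difference between the sort effects of AKVPSL and AKVPL passed the threshold of edgeR's quasi-likelihood test for 4 of the 9 tested genes. It was -1.45 for Id1 and -0.59 for Id3. It was 1.11 for Id4 and 1.35 for Bambi. These are differences of log2 fold changes, AKVPSL minus AKVPL.

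Among 36 groups of 4 libraries, 1 for each tested gene and group, 2 held a library far from the other 3. Chance gives about 1 in 20 among groups with reads in most libraries. Bambi had 14.6 CPM in AKVPL GFP- replicate 1, against 19.4 to 20.2 CPM in the other 3 libraries of that group. Msx2 had 0.0333 CPM in AKVPSL GFP+ replicate 3, which is 1 read, and none in the other 3. A single read among zeros always stands apart in this way, so it is not set against that rate.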

How the results depend on the processing

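The number of the 9 genes called stayed within 1.5 times its reported value under every setting run. Leaving out 1 library at a time gave 5 to 6 genes between sorts in AKVPSL, 3 to 4 in AKVPL, 5 to 6 between genotypes in GFP+ cells, 6 to 7 in GFP- cells and 4 to 6 in the difference of sort effects. Among the named genes single values turned sign in 11 cases, none of them called in the reported fit. With epithelial scaling these were Id1 (-0.13) and Atoh8 (-0.13) between the AKVPL sorts, Id2 between genotypes in GFP- cells (-0.0812) and Smad6 in the difference of sort effects (0.16). On log2 of RPKM plus 1 the Msx1 difference was 0.31. Leaving out 1 library moved the AKVPL sort value of Id1 between -0.0054 (without AKVPL GFP+ replicate 3) and 0.1838 and that of Atoh8 between -0.0333 (without AKVPL GFP- replicate 2; also -0.0117 without AKVPL GFP+ replicate 3) and 0.2492. It moved the AKVPSL sort value of Smad6 between -0.0118 (without AKVPSL GFP- replicate 2) and 0.2912, and its genotype value in GFP- cells between -0.1899 and 0.1130 (without AKVPSL GFP- replicate 2). The genotype value of Atoh8 in GFP+ cells ran between -0.0292 (without AKVPSL GFP+ replicate 4) and 0.3139. The cause of these turns was not tested. A further 46 single values lost their call and 22 gained one.

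With the replicate number as a block the genes called were 7 and 6 between the AKVPSL and AKVPL sorts, 6 and 7 between genotypes in GFP+ and GFP- cells, and 5 in the difference of sort effects. Over all genes the block gave 9266 calls in place of 8494 between the AKVPSL sorts, 7902 in place of 7070 between the AKVPL sorts, 9938 in place of 9584 in GFP+ and 11647 in place of 11328 in GFP- cells, and 4735 in place of 3743 in the difference. The pairing held by its rule between the AKVPL sorts, where it changed the calls of Id4 and Smad6 and of no other of the 9 genes. Epithelial scaling moved the share of calls that were higher between genotypes in GFP- cells to 32.73%, from 51.08%, and between the AKVPSL sorts to 57.76%, from 47.72%. It moved the median of all genes to -0.10 between the AKVPL sorts, -0.27 between genotypes in GFP- cells and 0.24 in the difference of sort effects. Depth limits Msx2 and Smad9, whose folds rest on few reads.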

Other observations

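Genes of neighbouring programmes were counted beside the BMP targets. Of 12 stem cell genes 9 rose and none fell in GFP+ over GFP- cells of AKVPSL, and likewise 9 and none in AKVPL. The list holds Lgr5, the gene behind the sort, whose rise was fixed by the sort. Between genotypes 8 were higher and none lower in AKVPSL than in AKVPL GFP+ cells, and 6 were higher and 1 lower in GFP- cells. Of all tested genes 22.4% rose and 24.6% fell between the AKVPSL sorts, and 22.6% and 16.5% between the AKVPL sorts. Between genotypes 24.9% of all tested genes were higher and 28.1% lower in GFP+ cells, and 32.0% and 30.7% in GFP- cells. Of 12 TGF-beta target genes, a list that repeats Smad7, 2 rose and 9 fell between the AKVPSL sorts, and 2 rose and 7 fell between the AKVPL sorts. Between genotypes 3 were higher and 5 lower in GFP+ cells, and 2 were higher and 7 lower in GFP- cells. Median log2 fold changes of the TGF-beta targets were -0.79 and -0.74 between the AKVPSL and AKVPL sorts, and -0.31 and -0.57 between genotypes in GFP+ and GFP- cells.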
